A study of Drosophila melanogaster with 8 samples.

Results

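The genes described here encode the nuclear RNA polymerases and the general transcription factors that load RNA polymerase II onto promoters. They were picked out by name: 31 of the 14210 genes in the files have a name that begins with RpI, RpII or RpIII and a digit, with Taf and a digit, or with TfI or TfII. The 31 comprise 3 subunits of RNA polymerase I, 5 of RNA polymerase II, 1 of RNA polymerase III, 13 TBP-associated factors (TAFs) and 9 genes of the TFIIA, TFIIB, TFIIE, TFIIF and TFIIS factors. Other subunits carry other names in the files, and they are given below as separate lists.

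RNA polymerase I transcribes the large ribosomal RNAs, RNA polymerase II the messenger RNAs, and RNA polymerase III the transfer RNAs and other small RNAs. Each polymerase has its own large catalytic subunits, and several small subunits are shared between the enzymes. At RNA polymerase II promoters TFIID, made of the TATA-binding protein and the TAFs, binds first, and TFIIA, TFIIB, TFIIF, TFIIE and TFIIH complete the initiation complex. In the larval brain, neuroblasts are large, growing and dividing stem cells, and neurons are their smaller, non-dividing progeny.

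Polyadenylated RNA was sequenced from wild type neuroblasts (5 libraries that make 3 replicates) and wild type neurons (3 libraries that make 2 replicates) from Drosophila melanogaster larval brains, late in the third instar. All the flies carried asense-Gal4 and UAS-stingerGFP, a nuclear green fluorescent protein driven in asense-expressing cells, and both cell types were sorted by flow cytometry from them. In wild type brains asense is expressed in neuroblasts, and its RNA was also found in the sorted neurons, at 21.3 and 46.1 FPKM. Whether it marks every neuroblast, and only neuroblasts, was not tested. The labels call the neurons differentiated daughter cells without giving their gate. Eggs were laid over 24 h and the animals grew for 5 more days at 25 degrees. Whether replicates were separate sorts or animals is not stated in the labels, and the p-values therefore measure the spread between these samples, which may be technical.

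The sort was read from marker genes. Neuroblast markers dpn, ase, mira, wor and CycE were all called higher in neuroblasts. Neuron markers elav, brp and n-syb were all called higher in neurons, as was the glial gene repo. Of the neuroblast markers ase had the smallest log2 fold change, 1.24. It stood at 105, 58.1 and 69.4 FPKM in neuroblast 1, 2 and 3, against 21.3 and 46.1 FPKM in neuron 1 and 2. The call of ase was lost when replicates were left out. The neuroblast replicates differed in neuronal RNA: n-syb stood at 14.2, 7.17 and 0.416 FPKM and elav at 57.2, 35.3 and 10.01 FPKM in neuroblast 1, 2 and 3, against 85.0 and 90.3 FPKM for n-syb and 321 and 435 FPKM for elav in neuron 1 and 2. FPKM is a fragment count divided by transcript length and by the mapped fragments of the library, so levels of different genes can be compared. The deepest libraries, both of neuroblast 3, hold 5903924 and 16282423 fragments of genes with a single transcript, and the other libraries hold 953228 to 2647307. In these sorted bulk samples, fewer cells of a type and less RNA per cell cannot be told apart.

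Of the 31 genes, 30 reached 1 FPKM in at least 2 replicates and were tested within a fit over 7975 genes. Neuroblast 1, neuroblast 2 and neuron 1 ran on 1 flow cell by the codes in the names of the deposited data, called the shared flow cell. The replicate block takes the replicate number as a factor. The test was limma on log2(FPKM + 1), with Benjamini-Hochberg adjustment over all of these and a threshold of 0.05. The call was higher in neuroblasts for 16 members, higher in neurons for 1, and absent for 13. Of all tested genes 63.3% were called, 33.4% as higher in neuroblasts and 29.9% as higher in neurons. When the FPKM of protein-coding genes were brought to an equal sum in each library, 8 members and 1744 genes in all were higher in neuroblasts, against 7 members and 3493 genes higher in neurons. Replicates of the cell types did not overlap for 22 members, 20 with neuroblasts above and 2 with neuroblasts below. Among all tested genes 78.6% did not overlap, 41.8% with neuroblasts above and 36.8% below. The members' median log2 fold change, neuroblast over neuron, was 0.93, against 0.17 over all tested genes. By complex it was 2.37 for the RNA polymerase I subunits, 0.95 for RNA polymerase II, 1.25 for the RNA polymerase III subunit, 0.05 for the TAFs and 1.05 for the other general factors. Under the protein-coding scaling these medians were 1.68, 0.18, 0.53, -0.71 and 0.30, with the median of all tested genes at -0.53.

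**Figure D1:**
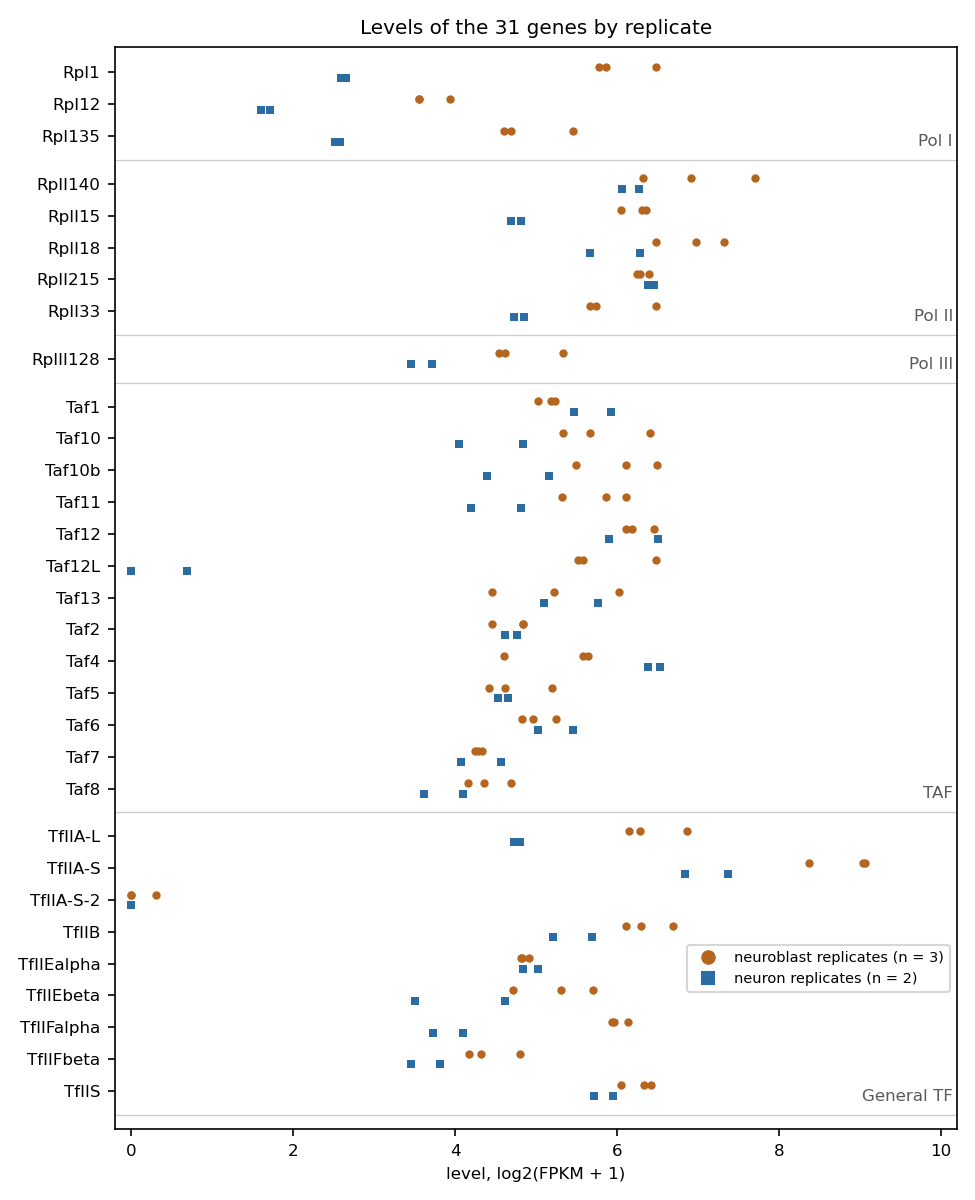
Level of each of the 31 genes in log2(FPKM + 1) on the horizontal axis, with 1 circle per neuroblast replicate (n = 3) and 1 square per neuron replicate (n = 2), grouped by complex. The 3 RNA polymerase I subunits show wide gaps between the cell types, RpII215 shows none, and Taf4 and Taf1 lie higher in neurons.

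RNA polymerase I subunits were higher in neuroblasts throughout. RpI1 (FBgn0019938, chromosome arm 2R, 10483112 to 10488702, in the files' coordinates, on a genome build that no source used here names), the largest and catalytic subunit, stood at 57.4, 53.8 and 88.2 FPKM in neuroblast 1, 2 and 3, against 5.30 and 5.01 FPKM in neuron 1 and 2. Every neuroblast library lay above every neuron library, and the ratio of the means was 12.9. Its log2 fold change was 3.42 (SE 0.30), with a limma adjusted p of 0.000448, and 2.75% of all tested genes had a higher one.

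RpI135 (FBgn0003278, 2L, 404305 to 407969), the second largest subunit, was at 24.9, 23.3 and 42.8 FPKM in neuroblasts, against 5.00 and 4.70 FPKM in neurons. RpI12 (FBgn0038903, 3R, 17602558 to 17603510), a small subunit known from yeast for RNA cleavage, stood at 10.7, 10.8 and 14.3 FPKM, against 2.27 and 2.03 FPKM. Their log2 fold changes were 2.37 (SE 0.34) and 2.03 (SE 0.29), with limma adjusted p-values of 0.00139 and 0.00136. RpI12 has the fewest fragments of the class, with 687 over the neuroblast libraries and 19 over the neuron libraries. Between the cell types all the RNA polymerase I subunits were separated without overlap, and in each the level of neuroblast 3 was the highest. Part of RpI12 overlaps CG6800 on the opposite strand, which was listed at 0 FPKM in all neuroblast replicates.

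Outside the naming rule, genes with an RNA polymerase I name in the reference annotation moved the same way. There are 4 of them, and all 4 were called higher in neuroblasts, with a median log2 fold change of 2.07. CG18600 (Polr1E in the reference) measured 30.98, 39.7 and 66.8 FPKM in neuroblasts, against 3.39 and 2.12 FPKM in neurons, which is 3.59 (SE 0.39) in log2 fold change. CG3756 (Polr1C) and l(2)37Cg (Polr1D), which RNA polymerases I and III share, had log2 fold changes of 2.15 and 1.98. For CG13773 (Polr1F) it was 1.59. With the members, 7 of 7 genes with an RNA polymerase I reference name were called higher in neuroblasts. Subunits that all nuclear RNA polymerases share have RNA polymerase II reference names and are counted there.

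A list of RNA polymerase I initiation factors and nucleolar partners had 5 of 8 genes called, each of them higher in neuroblasts, with a median log2 fold change of 2.11 over the list. At an unadjusted p under 0.05, 1 gene was higher in neurons, Top1, the DNA topoisomerase that relaxes transcribed genes, at -0.74. Nopp140, a nucleolar phosphoprotein, averaged 114 ± 21.1 FPKM in neuroblasts (SD, n = 3) and 15.2 ± 0.677 FPKM in neurons (SD, n = 2). The box C/D particle genes nop5, Fib and Nop56, which act in ribosomal RNA modification and not in initiation, had log2 fold changes of 3.09, 3.09 and 2.87. Of the initiation factors, CG6241 (TAF1B) was called at 0.87, a call that was lost when replicates were left out. Tif-IA was not called, at 80.9 ± 42.9 FPKM in neuroblasts and 30.1 ± 21.0 FPKM in neurons, with a limma adjusted p of 0.0894. The udd gene (CG18316), known for ribosomal RNA gene transcription, was not called, at 0.48.

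**Figure D2:**
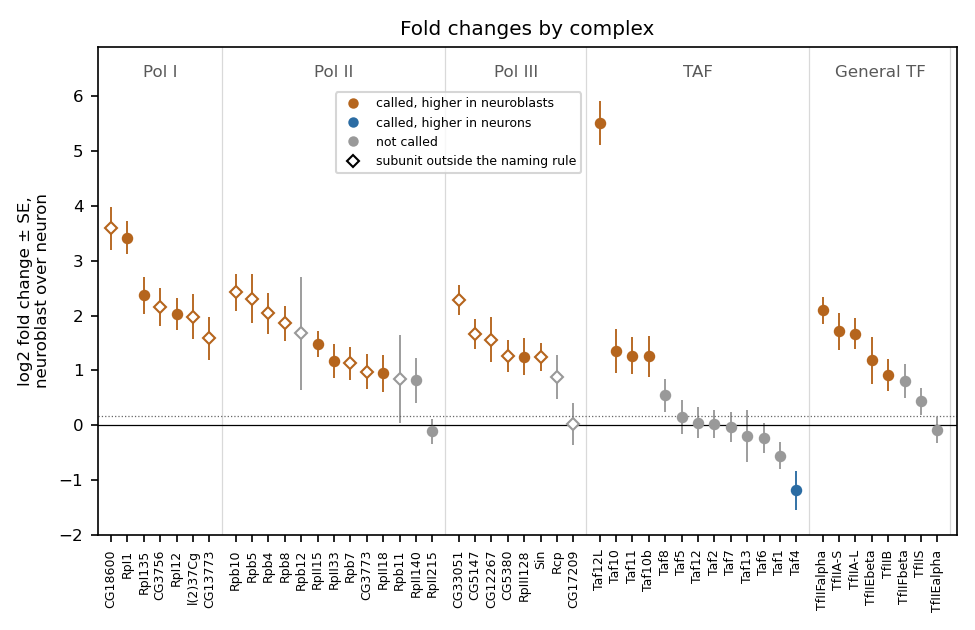
log2 fold change with its SE, neuroblast over neuron, for the 30 tested members (filled circles) and for polymerase subunits outside the naming rule (open diamonds, 1 subunit not drawn), grouped by complex. Brown marks genes called higher in neuroblasts, blue the 1 gene called higher in neurons and grey genes not called; the dotted line is the median of all tested genes, 0.17.

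Of the 5 RNA polymerase II subunits, 3 were called higher in neuroblasts, and the largest was not called. RpII215 (FBgn0003277, X, 11456806 to 11464355), the largest subunit, which carries the C-terminal repeat domain, stood at 83.2, 75.1 and 76.6 FPKM in neuroblast 1, 2 and 3, against 82.3 and 86.7 FPKM in neuron 1 and 2. The ranges overlapped, and this gene was measured with 39283 fragments in neuroblasts and 8833 in neurons. RpII215 had a log2 fold change of -0.11, with a 95% interval of -0.64 to 0.42 and a limma adjusted p of 0.687. Relative to the median of all genes it was -0.28. With quantile normalization it was called lower in neuroblasts at -0.63 (limma adjusted p 0.0487), and under the protein-coding scaling at -0.87 (limma adjusted p 0.0175).

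RpII140 (FBgn0262955, 3R, 9951515 to 9955548), the second largest subunit, which completes the active center, had 120, 78.7 and 208 FPKM in neuroblasts, against 65.7 and 76.2 FPKM in neurons. All neuroblast replicates lay above both neuron replicates, neuroblast 2 only by a small margin. It was not called, at a log2 fold change of 0.82 with a 95% interval of -0.15 to 1.79. Without neuroblast replicate 2 it was 1.15 and called, with a limma adjusted p of 0.0345.

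The small subunits RpII15, RpII33 and RpII18 were called higher in neuroblasts. RpII15 (3R, 10134797 to 10135566), the Rpb9 subunit, which acts in proofreading, was at 78.3, 65.4 and 80.9 FPKM in neuroblasts, against 27.2 and 24.8 FPKM in neurons, so that the groups lay far apart. RpII15 had a log2 fold change of 1.49 (SE 0.24) and a limma adjusted p of 0.00190. RpII33 (2L, 13833339 to 13834306), the assembly subunit Rpb3, stood at 50.01, 52.5 and 88.3 FPKM, against 27.9 and 25.6 FPKM. RpII18 (3R, 1197488 to 1198119), which is Rpb6 and is shared by all nuclear RNA polymerases, stood at 88.2, 125 and 159 FPKM, against 77.0 and 50.0003 FPKM. In the levels of RpII18, neuroblast 1 and neuron 1 lie close together. The log2 fold changes of RpII33 and RpII18 were 1.17 and 0.95, with limma adjusted p-values of 0.0147 and 0.0430, and the call of RpII18 was kept under 6 of 17 alternatives. RpII33 lost its call without neuron replicate 1 at 1.23 (limma adjusted p 0.0739) or 2 at 1.11 (0.0960), with the replicate block at 0.91 (0.0540), on the shared flow cell at 0.85 (0.0501) and under the protein-coding scaling at 0.42 (0.152). For RpII18 the call ended without neuroblast replicate 2 at 0.92 or 3 at 0.75 and without neuron replicate 1 at 1.25 or 2 at 0.64. It stood at 0.44 on the shared flow cell, also not called.

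The reference names 8 RNA polymerase II subunits outside the naming rule. Of these, 6 were called, all as higher in neuroblasts, and the median log2 fold change was 1.77. Rpb10, Rpb5 and Rpb8, which all nuclear RNA polymerases share, had 2.42, 2.31 and 1.86. Rpb4, which forms the stalk of the enzyme with Rpb7, averaged 37.7 ± 16.0 FPKM in neuroblasts and 8.41 ± 0.976 FPKM in neurons. The technical pair of neuron 1 gave Rpb4 4.52 and 13.7 FPKM. In the deposited data Rpb4 and Ada2a have the same locus (3R, 14078565 to 14081191). Their log2 fold changes were opposite, at 2.05 and -1.12. How fragments were divided between these genes was not tested, so both values are uncertain. Rpb12 and Rpb11 were not called, and their replicates spread widely: Rpb12 measured 267, 52.4 and 226 FPKM in neuroblasts, against 14.2 and 140 FPKM in neurons. With the members, 9 of 13 genes with an RNA polymerase II reference name were called higher in neuroblasts, with a median of 1.17. These 13 include the subunits shared between enzymes and CG3773 (Polr2M), counted by its reference name alone and called at 0.98.

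RpIII128 (FBgn0004463, 2R, 7926595 to 7930138), the second largest subunit of RNA polymerase III, was the only member from that enzyme. It had 22.2, 23.6 and 39.4 FPKM in neuroblasts, against 12.1 and 9.96 FPKM in neurons. The groups did not overlap, and the log2 fold change was 1.25 (SE 0.33), with a limma adjusted p of 0.0140. Its call was lost without neuron replicate 1 at 1.38 (limma adjusted p 0.0623) or 2 at 1.13 (0.103), under the protein-coding scaling at 0.53 and on the shared flow cell at 0.88.

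Outside the naming rule, 6 of 8 RNA polymerase III subunits were called, again as higher in neuroblasts, and their median was 1.41. CG33051 (Polr3G) averaged 46.8 ± 5.79 FPKM in neuroblasts and 8.85 ± 2.28 FPKM in neurons, and CG5147 (Polr3D) had a log2 fold change of 1.67. The largest subunit, CG17209 (Polr3A), is named here after its values were seen. It was at 9.35, 12.9 and 16.6 FPKM in neuroblasts, against 17.0 and 8.92 FPKM in neurons, at a log2 fold change of 0.03 (95% interval -0.88 to 0.93).

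Of 6 RNA polymerase III factors, 3 were called higher in neuroblasts and none the other way, and the median was 0.82. La, which binds the 3′ ends of new RNA polymerase III transcripts, averaged 196 ± 58.2 FPKM in neuroblasts and 26.7 ± 1.00 FPKM in neurons. Pbp49, of the complex that activates small nuclear RNA genes, had 1.41, and CG9305 (Bdp1), of the initiation factor TFIIIB, had 1.29. Brf, its partner in TFIIIB, was not called, at 26.0 ± 8.84 FPKM in neuroblasts and 21.4 ± 1.17 FPKM in neurons.

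Ratios of large subunits within a replicate, taken on the log2(FPKM + 1) scale, cancel most of a library's scaling. The log2 ratio of RpI1 to RpII215 was -0.53, -0.47 and 0.20 in neuroblast 1, 2 and 3, against -3.72 and -3.87 in neuron 1 and 2. RNA levels of RpI1 and RpII215 were thus close to each other in neuroblasts and far apart in neurons, and the mean log2 ratios differed by 3.53. For RpIII128 to RpII215 the log2 ratio was -1.86, -1.63 and -0.94 in neuroblasts, against -2.68 and -3.00 in neurons, a difference of 1.36. This pair is unlike, since RpIII128 is the second largest subunit of its enzyme and RpII215 the largest of its own. Among second largest subunits, the log2 fold change was 1.25 for RpIII128 and 0.82 for RpII140. Among largest subunits, it was 0.03 for CG17209 of RNA polymerase III and -0.11 for RpII215. Neither ratio overlapped between the cell types. The two-sided exact permutation p was 0.2 for both, before and after adjustment over the 2 ratios, which is the smallest p that 3 against 2 replicates can give here.

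**Figure D3:**
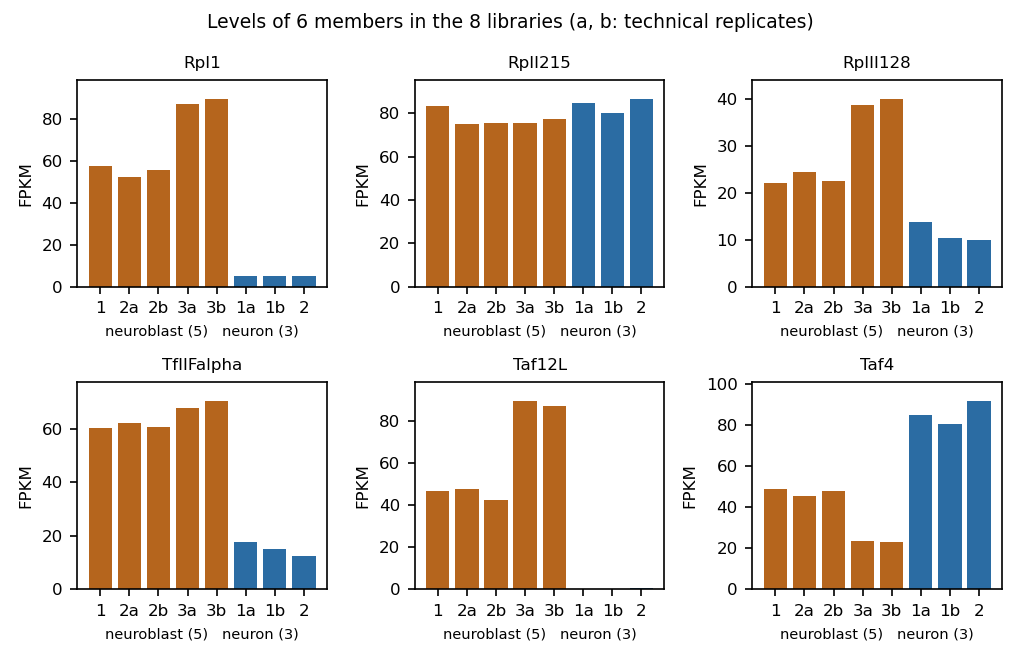
FPKM of 6 members in each of the 8 libraries, neuroblasts in brown and neurons in blue, with technical replicates of 1 sample marked a and b. RpI1 stays under 6 FPKM in all neuron libraries, RpII215 lies between 74.9 and 86.7 FPKM in every library, Taf12L is nearly absent from neurons, and Taf4 is higher in neurons.

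Of the 13 TAFs, 4 were called higher in neuroblasts, 1 higher in neurons and 8 were not called. Taf12L (FBgn0031623, 2L, 4700835 to 4701588), a paralog of Taf12 known from the testis, stood at 46.7, 44.9 and 88.1 FPKM in neuroblast 1, 2 and 3, against 0 and 0.605 FPKM in neuron 1 and 2. It was thus detected in every neuroblast library, while its neuron value rests on 1 fragment, against 3179 in the neuroblast libraries. Divided by the number of fragments that 1 FPKM stood for, summed over the libraries of each cell type, these counts gave a ratio of 638, with an exact 95% interval of 114 to 25215 that covers counting error only. Most of the neuroblast fragments, 744 and 2034, came from the libraries of neuroblast 3. The ratio of the means over replicates was 198, and the fold in the authors' deposited table is 93.3. On the log2(FPKM + 1) scale the fold change was 5.52, a value that depends on the pseudocount, with a limma adjusted p of 0.000305. Since neither neuron replicate reached 1 FPKM, Taf12L entered the test through its neuroblast levels, and the filter left it little room to go the other way.

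The Taf12L locus lies wholly within the span of CG34351 (dcma in the reference) on the opposite strand. CG34351 measured 0.131, 0.294 and 0.0663 FPKM in neuroblasts, against 1.65 and 1.29 FPKM in neurons. The host gene was thus low in both cell types, and it passed the filter only through the neurons, where it was higher. Taf12, the ubiquitous TFIID subunit that pairs with Taf4 through a histone fold, had 87.0, 68.4 and 72.0 FPKM in neuroblasts, against 58.9 and 89.8 FPKM in neurons, and was not called, at 0.05 with a 95% interval of -0.61 to 0.71. Other TAF paralogs known from the testis were low: nht was listed at 0 in all libraries, and sa and mia did not reach the filter. The remaining one, can, a Taf5 paralog, averaged 3.87 ± 1.23 FPKM in neuroblasts and 0.957 ± 0.880 FPKM in neurons. It reached the filter through neuroblasts, and its call as higher there was lost when replicates were left out (largest limma adjusted p 0.161).

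Taf4 (FBgn0010280, 3L, 16106323 to 16114468), which holds the core of TFIID together and contacts activators, was the 1 member called higher in neurons. It stood at 48.8, 46.8 and 23.4 FPKM in neuroblast 1, 2 and 3, against 82.8 and 91.7 FPKM in neuron 1 and 2. No neuroblast library reached the neuron levels, and the log2 fold change was -1.19 (SE 0.36), with a limma adjusted p of 0.0241. Neuroblast 3, with the lowest Taf4, also had the least neuronal RNA: the summed level of the 3 neuron markers was 85.5, 47.2 and 10.5 FPKM in neuroblast 1, 2 and 3, against 467 and 630 FPKM in neuron 1 and 2. All 3 markers were detected in every replicate, and their part in the Taf4 level was not tested. Without neuroblast replicate 3 Taf4 remained called, at -0.85 (limma adjusted p 0.0113). The call was lost without neuron replicate 1 at -1.26 (limma adjusted p 0.09997) or 2 at -1.11 (0.133). On the shared flow cell it was -0.78 (limma adjusted p 0.0603) and with the replicate block -0.85 (0.0680), also not called.

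Taf10, Taf10b and Taf11 were called higher in neuroblasts. Taf11 (2L, 9762364 to 9763244), a histone fold TAF, was at 67.9, 39.0 and 57.4 FPKM in neuroblasts, against 17.3 and 27.2 FPKM in neurons. The groups lay apart, with a log2 fold change of 1.27 (SE 0.34) and a limma adjusted p of 0.0145, and without neuron replicate 1 it was 0.95 and not called (0.125). The call also ended with the replicate block at 1.22 (limma adjusted p 0.0546) and under the protein-coding scaling at 0.52. Its partner Taf13 stood at 64.2, 21.0 and 36.3 FPKM, against 33.1 and 53.3 FPKM. Taf13 overlapped between the cell types and was not called, at -0.19 with a 95% interval of -1.31 to 0.93.

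Taf10 (2L, 2767902 to 2768612) and its paralog Taf10b (2L, 2767281 to 2768166) are neighbours on opposite strands whose loci overlap by 265 bases. Taf10 measured 39.4, 49.7 and 84.1 FPKM in neuroblasts, against 27.6 and 15.5 FPKM in neurons. Taf10b stood at 44.2, 68.2 and 88.9 FPKM, against 34.8 and 20.1 FPKM. In both genes the replicates took the same order, with neuroblast 3 highest and neuron 2 lowest. Taf10 and Taf10b had log2 fold changes of 1.36 (SE 0.40) and 1.26 (SE 0.38), with limma adjusted p-values of 0.0211 and 0.0231. Without neuron replicate 2 they were 0.96 and 0.88 and neither was called (limma adjusted p 0.168 and 0.180), and Taf10b also lost its call without neuroblast replicate 2 at 1.22 or 3 at 1.03. On the shared flow cell they were 0.66 and 0.65 (limma adjusted p 0.1204 and 0.196) and with the replicate block 1.06 and 1.03 (0.0619 and 0.0840), with neither called. Both also lost the call with upper quartile scaling at 0.99 and 0.88 and under the protein-coding scaling at 0.61 and 0.51. The libraries were made strand-specific, but no source used here says whether the counting used the strand, so the values of these overlapping genes are uncertain.

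Taf1 (FBgn0010355, 3R, 2472611 to 2481770), the largest TAF and scaffold of TFIID, had 31.4, 36.7 and 35.4 FPKM in neuroblasts, against 59.7 and 43.4 FPKM in neurons. All neuroblast replicates lay below both neuron replicates, but it was not called, at -0.55 with a 95% interval of -1.15 to 0.05 and a limma adjusted p of 0.0960. With each of the 4 other scalings Taf1 was called higher in neurons, for example at -0.93 with upper quartile scaling (limma adjusted p 0.0230). Taf7, which binds Taf1, stood at 18.5, 19.2 and 18.0 FPKM, against 22.8 and 15.9 FPKM, and overlapped.

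Taf2, Taf5, Taf6 and Taf8 were not called. Taf2, which contacts promoter DNA around the start site, was at 27.5, 20.9 and 27.6 FPKM in neuroblasts, against 23.6 and 26.1 FPKM in neurons. Taf5, a WD repeat subunit, stood at 23.6, 20.4 and 35.7 FPKM, against 22.1 and 24.1 FPKM. Taf6, a histone fold subunit, stood at 30.1, 27.3 and 37.0 FPKM, against 42.8 and 31.5 FPKM. In each of them the cell types overlapped. Taf8, the histone fold partner of Taf10, stood at 19.5, 16.8 and 24.9 FPKM, against 11.2 and 16.1 FPKM, without overlap and not called at 0.55. The 95% intervals of the log2 fold changes were -0.60 to 0.64 for Taf2, -0.58 to 0.88 for Taf5, -0.87 to 0.41 for Taf6, -0.68 to 0.61 for Taf7 and -0.18 to 1.27 for Taf8.

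TBP, its relatives Trf and Trf2, and the TFIID subunits with other names were measured as a list of 5. Of these, 3 were called higher in neuroblasts, Trf among them, and none the other way, at a median of 0.86. The TATA-binding protein gene Tbp averaged 26.5 ± 5.62 FPKM in neuroblasts and 13.2 ± 0.453 FPKM in neurons, and its log2 fold change was 0.93. The Taf9 gene e(y)1 had 0.86. The TBP relative Trf, known from Drosophila for RNA polymerase III initiation, measured 36.7, 33.5 and 57.6 FPKM in neuroblasts, against 15.8 and 10.3 FPKM in neurons, and rose by 1.63 in log2 fold change. The other relative, Trf2, and bip2 (Taf3) were not called, at -0.76 and -0.75.

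The remaining general factors were higher in neuroblasts or not called. TfIIFalpha (FBgn0010282, 3R, 2206181 to 2208326), the large subunit of TFIIF, which binds RNA polymerase II, had 60.4, 61.4 and 69.1 FPKM in neuroblasts, against 16.2 and 12.3 FPKM in neurons. Its log2 fold change was 2.10 (SE 0.25), with a limma adjusted p of 0.000880. The small subunit TfIIFbeta stood at 17.0, 19.0 and 27.0 FPKM, against 13.1 and 9.98 FPKM. It also did not overlap but just missed the threshold, at 0.80 with a 95% interval of 0.07 to 1.54 and a limma adjusted p of 0.0554. Part of TfIIFbeta overlaps Cap-H2 on the opposite strand, a condensin gene that was higher in neurons at -1.50.

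Both TFIIA subunit genes were called. TfIIA-S (FBgn0013347, 3R, 19716110 to 19716778), the small subunit, had the highest level of the 31 genes in either cell type, at 533, 329 and 523 FPKM in neuroblasts, against 114 and 165 FPKM in neurons. TfIIA-L (FBgn0011289, 3R, 23076834 to 23082186), the precursor of the large subunits, stood at 77.1, 69.9 and 116 FPKM, against 25.5 and 26.8 FPKM. The ratios of the means were 3.32 and 3.35. TfIIA-S had a log2 fold change of 1.71 (SE 0.34) and a limma adjusted p of 0.00450, and without neuron replicate 1 it was 1.45 and not called (limma adjusted p 0.0558). TfIIA-L had 1.67 (SE 0.29) and a limma adjusted p of 0.00251, and over 2050 bases its span overlaps pll on the opposite strand, which had 1.65. The paralog TfIIA-S-2 was not tested, since it showed 1 fragment over all libraries, in neuroblast 2.

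TfIIB (2L, 10431344 to 10432999), which places the start site, was at 77.4, 68.2 and 102 FPKM in neuroblasts, against 50.7 and 35.9 FPKM in neurons. The groups did not overlap, and the log2 fold change of 0.91 kept its call under 8 of 17 alternatives. It was lost without neuroblast replicate 1 at 0.95, without neuron replicate 1 at 1.16 and without neuron replicate 2 at 0.67, and on the shared flow cell it was 0.51. Part of it overlaps CG5337 on the opposite strand, a gene that was higher in neurons at -2.22. TFIIE helps to recruit TFIIH, and its small subunit alone was called. TfIIEalpha measured 27.1, 27.3 and 29.0 FPKM in neuroblasts, against 27.7 and 31.5 FPKM in neurons, and TfIIEbeta measured 25.2, 38.6 and 51.1 FPKM, against 23.6 and 10.3 FPKM. TfIIEalpha was not called, at -0.09 with a 95% interval of -0.64 to 0.47. TfIIEbeta, whose levels in neuroblast 1 and neuron 1 were nearly equal, was called at 1.18 (limma adjusted p 0.0468) and kept that call under 5 of 17 alternatives. Its call ended without neuroblast replicate 2 at 1.15 or 3 at 0.95 and without neuron replicate 2 at 0.63, and on the shared flow cell it was 0.40. TfIIS, which restarts stalled RNA polymerase II, stood at 79.9, 65.3 and 84.8 FPKM, against 51.6 and 60.6 FPKM, without overlap and not called at 0.44 (95% interval -0.14 to 1.02).

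TFIIH, the factor with helicases and a kinase, had 5 of 9 subunits called, each as higher in neuroblasts, and a median of 1.09. Among them were the genes of its kinase module: Cdk7 averaged 37.6 ± 17.1 FPKM in neuroblasts and 6.01 ± 0.610 FPKM in neurons, and CycH and Mat1 had log2 fold changes of 1.93 and 1.86. These kinase genes also serve the cell cycle. Of the helicase genes, Xpd was called at 1.09 and hay was not, at 0.44. In the lists of polymerase subunits, RNA polymerase III factors, TFIID relatives and TFIIH, the count higher in neurons was also 0 at an unadjusted p under 0.05 in limma.

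Lists around the initiation complex were mixed, and of their calls those of dre4, Ssrp, e(y)2, Trl and AP-2 alone held without each replicate in turn. The pausing and elongation list had 16 genes, 3 called higher in neuroblasts, 2 called higher in neurons and a median of 0.27. The FACT subunits dre4 and Ssrp, which also act at replication, had 1.85 and 1.84, the kinase gene Cdk9 had 0.87, and its cyclin CycT averaged 33.4 ± 16.7 FPKM in neuroblasts and 77.6 ± 0.364 FPKM in neurons, at -1.35. Nelf-A, of the pausing complex NELF, was also higher in neurons, at -1.01. Of 14 genes of SAGA, an acetyltransferase complex that shares TAFs with TFIID, 3 were called in each direction, and the median was 0.16. The small subunits e(y)2 and Sgf11 had 2.42 and 1.07 and wda, a Taf5 relative, had 1.03. In the other direction Ada2a and Spt20 both had -1.12. Ada2b averaged 16.6 ± 0.849 FPKM in neuroblasts and 33.9 ± 0.0256 FPKM in neurons. Since Ada2a has the same locus as Rpb4, its value is uncertain. The list of 8 promoter regulators had 3 genes called, all of them higher in neurons: the GAGA factor gene Trl at -1.25, the sequence-specific factor AP-2 at -2.85 and Hel89B, the Mot1 homolog, at -0.89. None of this list was higher in neuroblasts by limma, also at an unadjusted p under 0.05.

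The levels varied among the replicates of a cell type. Neuroblast 3 had the highest level of the neuroblast replicates in 22 of the 30 tested members, against 52.4% of all tested genes. Its libraries also had the largest FPKM sums over all genes, 740395 and 753682. The other neuroblast libraries summed to 449268 to 551675 and the neuron libraries to 321551 to 343514. Technical pairs of libraries differed little in the members, with a median absolute log2 difference of 0.06 in neuroblast 2, 0.05 in neuroblast 3 and 0.11 in neuron 1. By mean level the order differed between the cell types: TfIIA-S was followed by RpII140, RpII18 and TfIIA-L in neuroblasts, and by Taf4, RpII215 and Taf12 in neurons. In neurons Taf4 (87.2 ± 6.30 FPKM) and RpII215 (84.5 ± 3.13 FPKM) overlapped in spread, with Taf4 slightly above in each replicate. In neuroblasts RpII140 (136 ± 66.2 FPKM), RpII18 (124 ± 35.2 FPKM) and TfIIA-L (87.5 ± 24.5 FPKM) also overlapped in spread. Within each neuroblast replicate TfIIA-L nevertheless lay below RpII140 and RpII18, while RpII140 and RpII18 changed order between replicates.

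The authors' deposited table of DESeq comparisons, in which the largest adjusted p is 0.00995, lists 8 of the 31 genes. Of the listed genes 7 are, in the authors' deposited table, higher in neuroblasts and 1, Taf4, in neurons, where 21.3% and 20.6% of the genes tested here are listed in these directions. The log2 fold changes in the authors' deposited table are 3.69 for RpI1, 2.45 for RpI12, 2.69 for RpI135, 6.54 for Taf12L, 1.44 for TfIIA-L, 1.34 for TfIIA-S, 2.05 for TfIIFalpha and -1.39 for Taf4. All 8 were also called here, from data of the same study.

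Calls depended on scaling and on single replicates. Within the shared flow cell 9 members were higher in neuroblasts and 0 higher in neurons in limma (2 at an unadjusted p under 0.05), with RpI1 at 3.17, Taf12L at 5.55 and RpII215 at -0.06. The replicate block, which sets aside neuroblast 3, which has no neuron of its number, also gave 9 and 0 (1 at an unadjusted p under 0.05). Scaling moved the median of all genes to -0.17 with upper quartile scaling, -0.11 under median ratios, 0.01 after quantile normalization and -0.53 under the protein-coding scaling, against 0.17 as deposited. All of these scalings except quantile normalization divide each library by a constant, so distances to the median change little by construction. Relative to those medians of all genes, in the same order, the RNA polymerase I subunits lay at 2.20, 2.20, 2.43 and 2.21, and at 2.20 as deposited. The TAFs lay at -0.15, -0.15, -0.30 and -0.18, and at -0.12 as deposited. RNA polymerase II lay at 0.74, 0.75, 0.42 and 0.71, and at 0.78 as deposited. RpIII128 lay at 1.07, 1.07, 0.98 and 1.05, and at 1.09 as deposited. The other general factors lay at 0.85, 0.86, 0.68 and 0.83, and at 0.88 as deposited. Without neuron replicate 2 their median log2 fold change itself was 0.65, against 1.05. The 7 members higher in neurons under the protein-coding scaling were Taf4, RpII215, Taf1, Taf2, Taf5, Taf6 and TfIIEalpha. RpI1, RpI12, RpI135, RpII15, Taf12L, TfIIA-L and TfIIFalpha kept their call under all 17 alternatives. Outside the naming rule, the calls that held without each replicate in turn were 3 of 4 for RNA polymerase I subunits, 4 of 6 for RNA polymerase II, 3 of 6 for RNA polymerase III, 0 of 3 for the TFIID relatives and 3 of 5 for TFIIH. They were 0 of 1 for the testis TAF paralogs, 4 of 5 for RNA polymerase I factors, 2 of 3 for RNA polymerase III factors, 2 of 5 for pausing and elongation, 1 of 6 for SAGA and 2 of 3 for the promoter regulators. Of the markers, 4 of 5 for neuroblasts and 1 of 3 for neurons held.

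**Figure D4:**
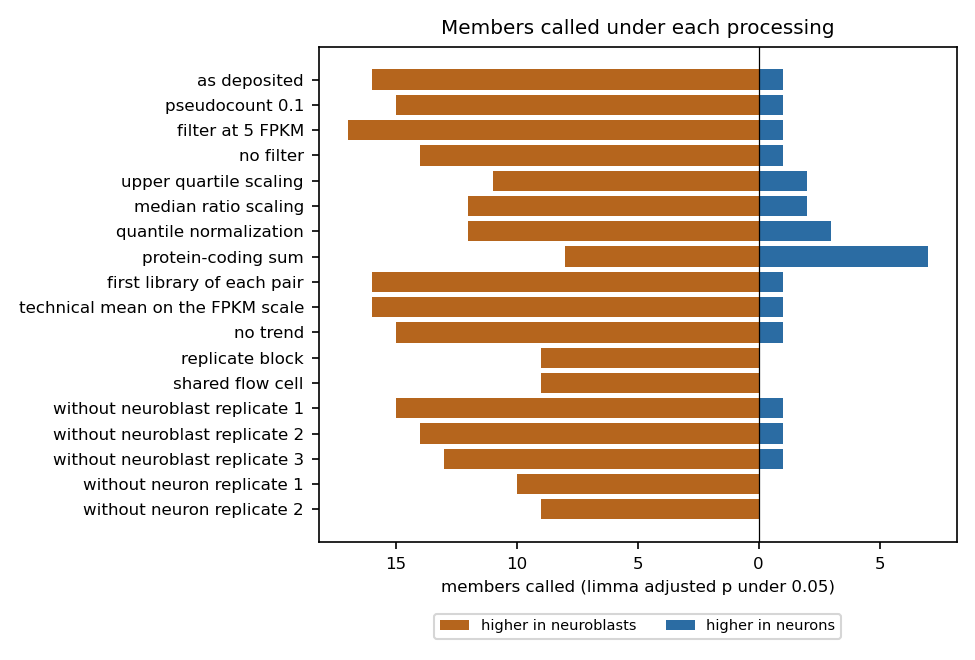
Number of members called higher in neuroblasts (brown, to the left) and higher in neurons (blue, to the right) by limma under the deposited values and each of 17 alternatives. The counts are 16 and 1 as deposited, 8 and 7 for the protein-coding sum, and 9 and 0 with the replicate block, on the shared flow cell and without neuron replicate 2.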

How the data were processed

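Each of the 8 library files is a Cufflinks table with 1 FPKM per gene, which the authors made relative to transcript length and mapped fragments, per the file headers. The submitters' processing notes name Cufflinks 1.3.0, TopHat 1.4.1, BWA 0.6.1, DESeq 1.8.3 and HTSeq, with no roles. The authors' deposited table holds mean signal (scaled counts), a fold (ratio of neuroblast to neuron means), that fold in log2, and p-values raw and adjusted; its direction was read from its condition columns, and its means were not used. No source used here names the genome build. Reference release 115 gave names, biotypes and strands but no coordinates, and 13575 of 14210 identifiers matched. No column of per-sample values was left without a sample (0 unused).

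Technical replicates were averaged, on the log2(FPKM + 1) scale for the test and as FPKM for printed levels. The filter kept genes that reached 1 FPKM in 2 or more replicates. They were tested with limma 3.58.1 (R 4.3.3), two-sided, with a trend in the prior variance, and the script was tested on simulated data. Fold changes on this scale understate the change of low genes. Fragment numbers came from the width of the Cufflinks confidence interval, and 91.0% to 91.6% of those under 200 were whole within 0.05. Permutation tests and exact intervals used scipy 1.17.1.

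The members, lists and tests were chosen with earlier results of these data known. The naming rule gives in full, in each class, the 4 members with the smallest adjusted p, those called against the majority and those not called, and from each list up to 3 called genes a direction. Other genes of the lists were named after their values were seen. The value of 1 gene that the rule picks from a list is not reported here, and it is counted in its list.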

Additional observations from a re-analysis of the deposited data

How the results depend on the processing

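Of all tested genes, 1744 were called higher in neuroblasts with the protein-coding sum, against 2667 as deposited, and leaving out 1 replicate gave 1674 to 2629. Called higher in neurons were 3493 with the protein-coding sum and 1600 to 2432 with 1 replicate left out. Members called higher in neuroblasts numbered 8 with the protein-coding sum, 9 with the replicate block, 9 on the shared flow cell and 9 to 15 with 1 replicate left out (10 without neuron replicate 1, 9 without neuron replicate 2), against 16. Members called higher in neurons numbered 2 after upper quartile scaling, 2 with median ratios, 3 with quantile normalization, 7 with the protein-coding sum, 0 with the replicate block and on the shared flow cell, and 0 to 1 with 1 replicate left out. Fits without neuron replicate 1 or 2 and on the shared flow cell assume that the lone neuron sample varies like the neuroblasts. The share of calls that were higher in neuroblasts over all genes was 52.8% as deposited and 33.3% with the protein-coding sum.

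Values near 0 changed sign, and none of them was called as deposited. Upper quartile scaling gave -0.33 for Taf12, -0.35 for Taf2 and -0.22 for Taf5. Median ratio scaling gave them -0.26, -0.29 and -0.15, quantile normalization -0.41, -0.29 and -0.17, and the protein-coding sum -0.71, -0.72 and -0.59, beside -0.18 for Taf8 and -0.32 for TfIIS. The first library of each pair gave -0.038 for Taf2. The replicate block gave -0.0445 for Taf2 and -0.0735 for Taf5. The shared flow cell gave 0.16 for Taf13 and -0.012 for Taf5. With 1 replicate left out, the values ranged from -0.25 to 0.35 for Taf12 (-0.25 without neuron replicate 1), -0.59 to 0.20 for Taf13, -0.0503 to 0.15 for Taf2, -0.073 to 0.32 for Taf5 (lowest without neuroblast replicate 3), -0.28 to 0.21 for Taf7 and -0.17 to 0.003 for TfIIEalpha (highest without neuron replicate 2). The causes were not tested. Over all members and alternatives, 408 values kept sign and side of the threshold, 63 lost a call and 29 changed sign. Members not called as deposited gained a call in 12 cases, 2 of them with a changed sign.

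The labels tie replicate numbers to no shared animal, day or sort, though neuroblast 1 and neuron 1 share a flow cell. On these labels the numbers were not taken as pairs. The deviations of same-numbered samples from their group means correlated across genes at -0.52 and -0.39. For neuroblast 1 with neuron 2 and neuroblast 2 with neuron 1 the values were 0.52 and 0.39. With 2 neuron replicates the values for neuron 1 and neuron 2 mirror each other by construction, so they are not separate evidence. The cause of the variation shared by differently numbered samples was not tested. The log2 ratios of RpI1 and RpIII128 to RpII215 differed between neuroblasts and neurons by 3.74 and 1.43 with a pseudocount of 0.1. Depth limits RpI12 and Taf12L in neurons.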
